A study of Rattus norvegicus with 16 samples.

Results

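The medial vestibular nucleus (MVe) was profiled on 4 of the 16 Affymetrix arrays of a rat series, 1 array for each of 4 treatments. The other 12 arrays held the solitary nucleus (Sol) and the lateral (LHb) and medial (MHb) parts of the habenula under the same treatments. The study asked how gene expression differs in brain regions that anesthesia activates. Male Wistar rats aged 8 to 10 weeks were treated for 60 minutes with the inhaled anesthetic sevoflurane at 2.4% or with O2 alone as its control. Other rats received the intravenous anesthetic propofol, as a bolus of 10 mg/kg and an infusion of 36 mg/kg/hr, or Intralipos, a 10% lipid emulsion that served as the vehicle control at the same bolus and rate. All groups, controls included, breathed 40% oxygen at 6 L/min. The nucleus was isolated by laser microdissection from Nissl-stained frozen sections 30 µm thick. The labels state neither how many rats an array stands for nor whether arrays of different regions share rats.

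Values are log2 signals, and a difference of 1 log2 is a doubling if that scale, which was read from the values, is right. A pair of differences was taken in MVe, sevoflurane minus O2 and propofol minus Intralipos, and their mean equals the mean of both anesthetic arrays minus the mean of both control arrays. Genes were kept as shared when both differences had the same sign and reached 1 log2. This rule kept 18 of 15037 genes, of which 11 were higher (0.0732% of the genes) and 7 lower (0.0466%) under both anesthetics. The rule chose these genes by their values on the 4 MVe arrays, so those values are a description, and the 12 arrays of the other regions are the measurements it did not use.

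The MVe is the medial part of the vestibular complex, which receives signals from the semicircular canals and otolith organs and drives eye and neck reflexes. Many of its neurons fire steadily at rest, and glycine and GABA neurons make up a large share of its inhibitory circuits. Immediate early genes are transcribed within minutes of strong neuronal activation, before any new protein is made. Calcium and kinase signals reach them mainly through CREB, which binds cAMP response elements, and through serum response factor, which binds CArG boxes. Sevoflurane and propofol both potentiate GABA-A receptors, and sevoflurane also acts on K2P potassium channels and NMDA receptors.

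The labelled tissue was checked against region markers. Of 13 vestibular and hindbrain markers, 7 were higher on every MVe array than on all 12 other arrays. The glycine transporter gene Slc6a5 lay between 13.98 and 14.31 in MVe and between 9.59 and 10.91 in Sol, and the parvalbumin gene Pvalb lay between 16.73 and 17.37 in MVe and at 9.64 or less in LHb. None of 8 habenula markers (0) or of 9 solitary nucleus markers (0) did so. The same was true of 3 of 11 cerebellar markers, among them the Purkinje cell gene Pcp2 at 7.61 to 8.45 in MVe, and of 4 of 11 choroid plexus markers, among them the transthyretin gene Ttr at 16.99 to 18.25. Choroid plexus transcripts were thus present on all 4 MVe arrays. Among the 7 vestibular and hindbrain markers, Lhx1 lay at 3.71 to 4.54, below the median negative control of every MVe array (4.66 or more). The hindbrain genes Hoxa2, Hoxb3 and Hoxb4 were lower on every MVe array than on every Sol array. Hoxa2 lay at 8.00 to 9.08 in MVe and at 10.04 to 10.84 in Sol. In such bulk samples fewer cells of a type and less RNA per cell cannot be told apart, which holds for every difference below.

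The MVe O2 array stood apart. It had the narrowest interquartile range over all probes of the 16 arrays (4.92, against 5.16 on the MVe sevoflurane array, 5.001 with propofol and 5.03 with Intralipos). The 95th percentile of its negative control probes was the highest of the 16 arrays (9.34, against 8.68, 8.33 and 8.09 on the other MVe arrays in that order). Every sevoflurane difference in MVe rests on this array, so the propofol difference beside it is the value without it. After quantile normalization of the 4 MVe arrays, 14 genes met the rule, 10 higher and 4 lower, and 12 of them were among the original 18. Pax2 and Ypel4 then fell short of 1 log2, with sevoflurane differences of 0.94 each. Of the lower genes, Olr1191 (-0.95), Lypd8l1 (-0.97) and Tas2r139 (-0.90) fell short with sevoflurane, and Aass (-0.999955) fell just short with propofol.

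The largest mean differences among the 18 genes belonged to 5 immediate early transcription factor genes. Egr1, a zinc finger factor, was at 12.71 on the sevoflurane array, against 7.53 on the O2 array, and at 11.37 on the propofol array, against 6.81 on the Intralipos array. The mean difference was 4.87. To set arrays of both sets side by side, each array was centred on its median over genes (7.03 with sevoflurane, 6.90 with O2, 6.68 with propofol and 6.70 with Intralipos), which was chosen after the data were seen. Both anesthetic arrays then lay at least 4.06 above both control arrays in Egr1. Nr4a1, an orphan nuclear receptor, was at 11.75 with sevoflurane, against 6.52 with O2, and at 7.54 with propofol, against 4.68 with Intralipos. Its sevoflurane difference of 5.23 was the largest of the 18 genes, while its propofol difference was 2.86. Fos, a subunit of the AP-1 factor, was at 11.63 with sevoflurane, against 7.16 with O2, and at 9.60 with propofol, against 7.27 with Intralipos. The mean differences were 4.04 for Nr4a1 and 3.40 for Fos, and the centred groups did not overlap in either gene. In all 5 early genes both control values lay under the 95th percentile of the array's negative control probes, so the size of these differences is limited by background.

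Npas4, a factor that neurons induce on calcium influx, was at 8.93 on the sevoflurane array, against 5.05 on the O2 array, and at 6.03 on the propofol array, against 4.71 on the Intralipos array. Junb, another AP-1 subunit, was at 8.89 with sevoflurane, against 5.87 with O2, and at 6.84 with propofol, against 5.46 with Intralipos. In both genes the propofol array lay closer to the controls than the sevoflurane array did. The propofol difference was 1.31 for Npas4 and 1.39 for Junb, beside sevoflurane differences of 3.88 and 3.02. Whether the sevoflurane and the propofol difference of a gene differ in MVe was not tested, since each rests on 2 arrays.

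The promoter windows of Egr1, Nr4a1 and Junb are shown because they hold motifs that the factors named above bind. Each window runs from 250 bases before to 50 after the gene start in RefSeq (GRCr8), at chr18:26736828-26737127, chr7:134259888-134260187 and chr19:40080876-40081175, all on the plus strand. Capitals mark TGACG, the core of a cAMP response element, on either strand, the CArG box and TATAAA.
Egr1: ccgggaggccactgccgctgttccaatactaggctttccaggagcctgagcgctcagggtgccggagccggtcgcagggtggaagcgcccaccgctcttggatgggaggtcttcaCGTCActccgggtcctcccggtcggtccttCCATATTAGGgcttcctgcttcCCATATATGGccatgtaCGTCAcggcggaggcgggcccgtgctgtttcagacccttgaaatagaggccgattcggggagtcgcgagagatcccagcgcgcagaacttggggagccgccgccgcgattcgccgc
Nr4a1: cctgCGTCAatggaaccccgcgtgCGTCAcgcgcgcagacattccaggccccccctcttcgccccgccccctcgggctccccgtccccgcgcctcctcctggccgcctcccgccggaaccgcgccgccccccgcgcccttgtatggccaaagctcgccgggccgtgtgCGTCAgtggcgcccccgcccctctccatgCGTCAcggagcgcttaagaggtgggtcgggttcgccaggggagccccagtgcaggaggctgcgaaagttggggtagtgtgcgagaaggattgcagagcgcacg
Junb: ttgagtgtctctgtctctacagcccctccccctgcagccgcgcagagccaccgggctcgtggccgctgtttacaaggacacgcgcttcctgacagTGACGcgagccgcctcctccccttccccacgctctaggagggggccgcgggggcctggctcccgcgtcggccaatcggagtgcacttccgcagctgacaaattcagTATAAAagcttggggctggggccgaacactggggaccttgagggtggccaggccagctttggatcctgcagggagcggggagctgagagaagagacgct

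In Egr1 the TGACG cores start at -135 and -66 and the CArG boxes at -105 and -83 relative to the gene start. Nr4a1 has 4 cores, at -246, -226, -82 and -53, and Junb has 1 at -155 and a TATAAA at -49. Of the shared genes, 9 of 11 higher and 6 of 7 lower ones matched a window, and Fos, Kctd16 and Necab1 did not. TGACG was found in 4 of 9 higher genes (Egr1, Junb, Nr4a1 and Ypel4) and 1 of 6 lower genes (Aass), against 21.2% of all 33469 windows. The full element TGACGTCA, which contains the core on both strands, was in none of the 15 windows (0) and in 1.83% of all. A CArG box was in Egr1 alone of these genes and in 1.64% of all windows. TGANTCA, the AP-1 motif, was in Ypel4 alone and in 7.33% of all windows, and TATAAA was in Junb, Pcdhb10, Ccl6 and Tas2r139 and in 14.2% of all. These are matches of letters and not tested binding sites.

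**Figure D1:**
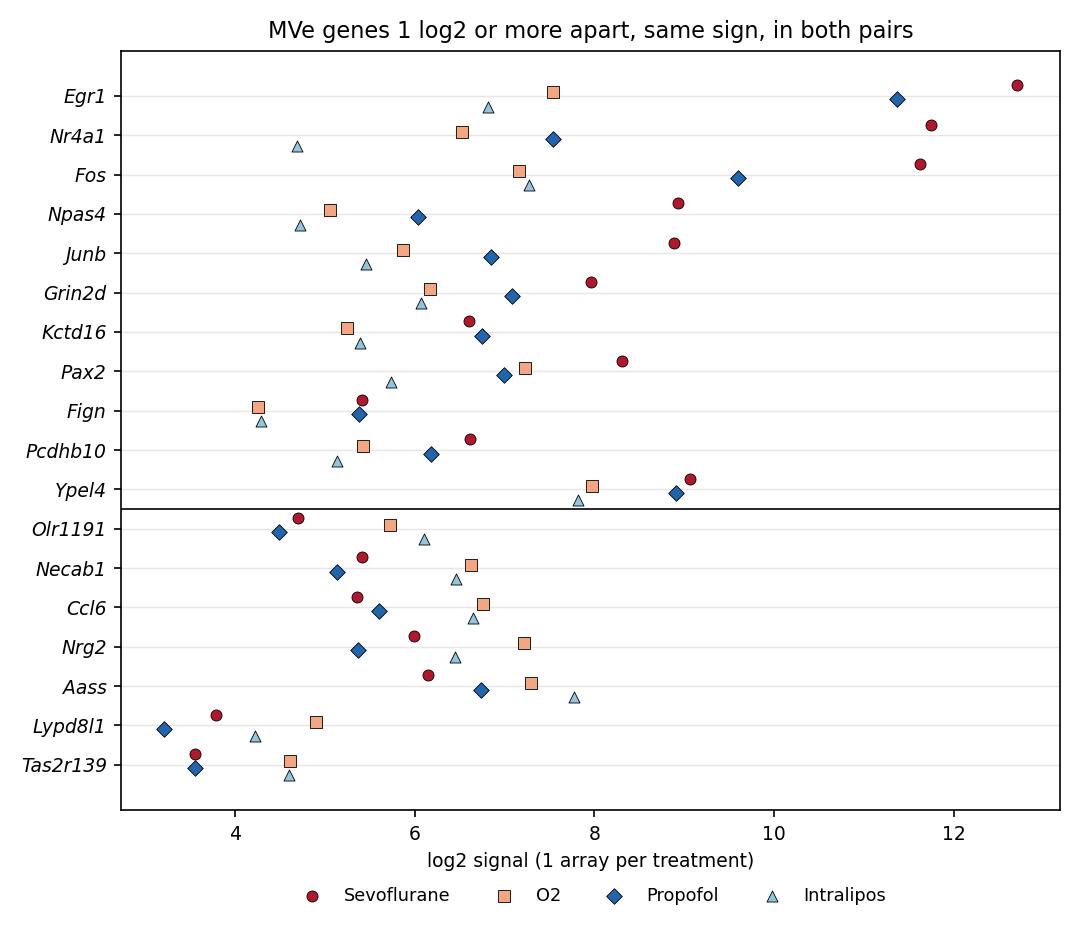
Log2 signal of the 18 shared genes on the 4 MVe arrays, 1 point per array, with the 11 higher genes above the line and the 7 lower genes below it. Egr1 reaches 12.71 and 11.37 on the sevoflurane and propofol arrays, and the propofol array of Pax2 lies below its O2 array.

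The other 6 higher genes had mean differences between 1.09 and 1.41. Grin2d, which encodes the GluN2D subunit of NMDA receptors, was at 7.97 with sevoflurane, against 6.17 with O2, and at 7.09 with propofol, against 6.07 with Intralipos. Kctd16, an auxiliary subunit of GABA-B receptors, was at 6.60 with sevoflurane, against 5.24 with O2, and at 6.75 with propofol, against 5.39 with Intralipos. Its differences of 1.37 and 1.36 were nearly the same size, unlike those of the early genes. Ypel4 was at 9.07 with sevoflurane, against 7.97 with O2, and at 8.90 with propofol, against 7.82 with Intralipos. Pax2, a paired box factor of inhibitory interneurons in the hindbrain, was at 8.30 with sevoflurane, against 7.22 with O2, and at 6.99 with propofol, against 5.74 with Intralipos. Its propofol array lay 0.24 below its O2 array as deposited and 0.02 below it after centring. Fign, which encodes a microtubule-severing enzyme, had differences of 1.15 and 1.09, and the cell adhesion gene Pcdhb10 of the protocadherin beta cluster had 1.19 and 1.05.

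The 7 lower genes had mean differences between -1.32 and -1.05, and their centred groups did not overlap in 7 of 7. Both centred anesthetic arrays lay below both control arrays in 15% of all genes, and above them in 9.84%, beside 10 of the 11 higher genes, but the rule that chose these genes uses the same values. Nrg2, a ligand of ErbB receptors, was at 5.99 with sevoflurane, against 7.22 with O2, and at 5.37 with propofol, against 6.45 with Intralipos. Necab1, a neuronal calcium-binding protein gene, was at 5.41 with sevoflurane, against 6.62 with O2, and at 5.13 with propofol, against 6.46 with Intralipos. Aass, an enzyme gene of lysine breakdown, was at 6.14 with sevoflurane, against 7.29 with O2, and at 6.74 with propofol, against 7.77 with Intralipos. The mean differences of these 3 genes lay between -1.27 and -1.09, just past the threshold that the rule set. The mean difference was -1.22 for the chemokine gene Ccl6, -1.32 for the olfactory receptor gene Olr1191, -1.05 for the taste receptor gene Tas2r139 and -1.06 for Lypd8l1. Tas2r139 and Lypd8l1 lay below the median negative control on all 4 MVe arrays. Between 13.4% and 48.6% of those probes were under Tas2r139, and 6.59% to 47.1% under Lypd8l1. Both count among the 7 by the rule, but their differences cannot be told from background.

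Signal height differed among the shared genes. On both anesthetic arrays, Egr1, Fos and Ypel4 lay above the 95th percentile of the array's negative control probes, which makes 3 of the 11 higher genes. At least 1 MVe array exceeded that percentile in 6 of 11 higher and 0 of 7 lower genes. The median of all gene values on the MVe arrays was 6.83, and 8 of the 11 higher genes but 2 of the 7 lower genes (Nrg2 and Aass) reached it on their highest array. Kctd16, Fign, Pcdhb10 and the other 5 lower genes fell short of it and were named after their values were seen. The genes nearest to the threshold were Grin2d and Pcdhb10 inside (smaller differences 1.02 and 1.05) and Fgf18 and Prlr outside (0.99 and 0.96). On the lower side they were Lypd8l1 and Olr1191 inside (-1.01 and -1.02) and Loxl3 and Or5p59 outside (-0.99 and -0.96).

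**Figure D2:**
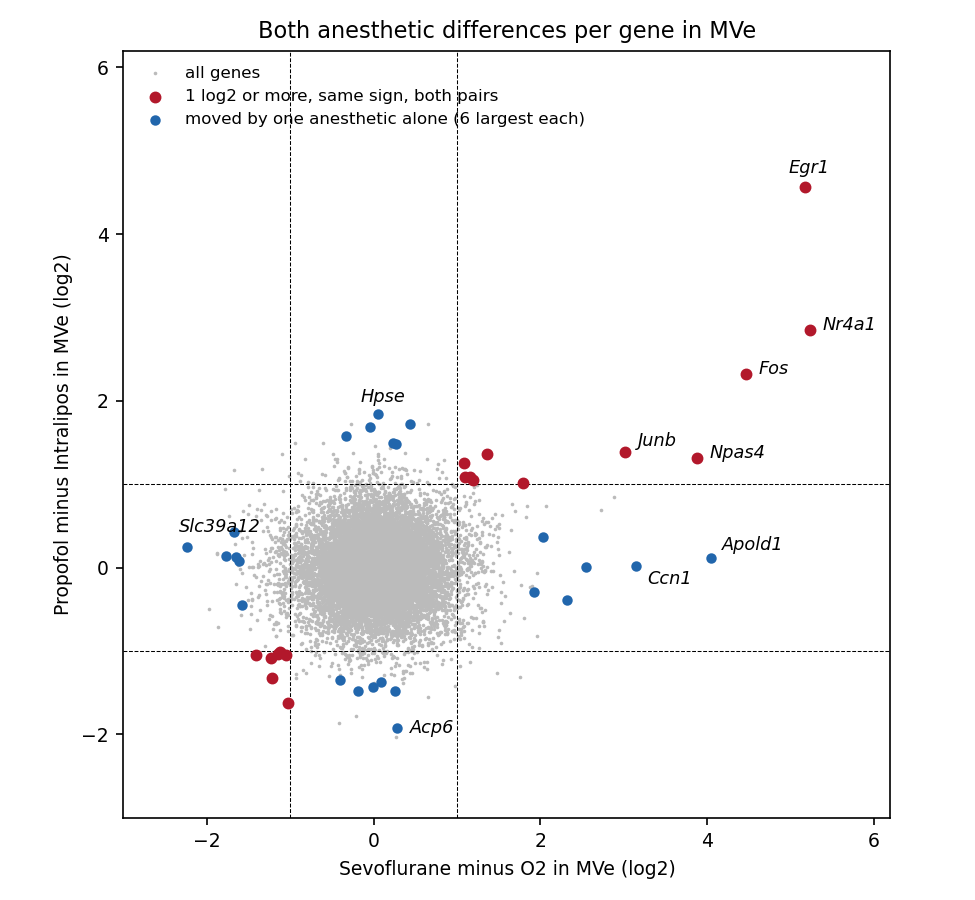
Sevoflurane minus O2 (x axis, log2) against propofol minus Intralipos (y axis, log2) in MVe for 15037 genes, with dashed lines at 1 and -1. Red points are the 18 shared genes, with Egr1 at 5.17 and 4.56, and blue points are the 24 largest differences seen with 1 anesthetic alone, such as Apold1 at 4.05 and 0.12.

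Shared genes were a small share of the genes that differed in either pair. Sevoflurane minus O2 reached 1 log2 in 296 higher genes (1.97%) and 246 lower genes (1.64%), and propofol minus Intralipos in 127 higher (0.845%) and 129 lower genes (0.858%). The 11 shared higher genes made up 3.72% of the higher sevoflurane genes and 8.66% of the higher propofol genes, and the 7 shared lower genes made up 2.85% and 5.43%. Across all genes, which are not independent replicates, the Pearson correlation between both differences was 0.047 in MVe. It was 0.017 in LHb, -0.038 in MHb and -0.040 in Sol. The sevoflurane differences were also spread more widely in MVe (SD 0.454 over genes) than in LHb (0.350), MHb (0.368) and Sol (0.372), while the propofol SDs were 0.389, 0.384, 0.407 and 0.419 in the same order.

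The same rule gave fewer shared genes in each of the other regions. LHb had 3 higher (0.02%) and 1 lower (0.00665%), MHb had 1 higher (0.00665%) and 4 lower (0.0266%), and Sol had 3 higher (0.02%) and 1 lower (0.00665%). Egr1 and Junb were among the 3 higher genes of LHb, beside Ppp1r1c. For sevoflurane the higher and lower genes came to 0.539% and 0.492% in LHb, 0.825% and 0.658% in MHb, and 0.705% and 0.672% in Sol. For propofol they came to 0.865% and 0.698% in LHb, 1.1% and 1.08% in MHb, and 1.56% and 0.951% in Sol. These counts describe 1 array against 1 array, and the difference in counts between regions was not tested.

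The 12 arrays of LHb, MHb and Sol give a test of the shared genes that their choice did not use. A limma model with the 6 pairs of arrays as a block and 1 anesthetic effect was fitted to all genes. Egr1 was higher in 6 of 6 pairs, with an anesthetic effect of 1.91 ± 0.37 (SE; adjusted p = 0.708 by the Benjamini-Hochberg method), and Junb in 6 of 6 with 1.11 ± 0.21 (0.708). Npas4 had 0.55 ± 0.13 (6 of 6 pairs, 0.708), Fos 1.302 ± 0.32 (5 of 6, 0.708) and Nr4a1 1.22 ± 0.31 (5 of 6, 0.708). None of the 15037 genes passed limma's adjusted threshold of 0.05 (0 genes, 0%), while 909 had an unadjusted p under 0.05. Those 909 included the 5 early genes and none (0) of the other 6 higher or of the 7 lower genes.

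The 5 early genes thus had the same sign outside MVe as in it, without passing the adjusted test. The other 6 higher genes had effects between -0.08 and 0.25 (adjusted p 0.869 to 0.999 by limma), and the 7 lower genes between -0.21 and 0.27 (0.855 to 0.995). Grin2d stood at -0.08 ± 0.14 outside MVe, with 3 of 6 pairs above 0. Necab1 stood at -0.01 ± 0.14, on levels between 11.32 and 13.42 in LHb and Sol, far above its 5.13 to 6.62 in MVe. By anesthetic, Egr1 outside MVe was 1.49 to 3.91 higher with sevoflurane in the 3 regions, and 0.11 to 2.06 higher with propofol. Nr4a1 with propofol was 1.57 higher in LHb, 0.44 higher in Sol and at -0.26 in MHb.

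**Figure D3:**
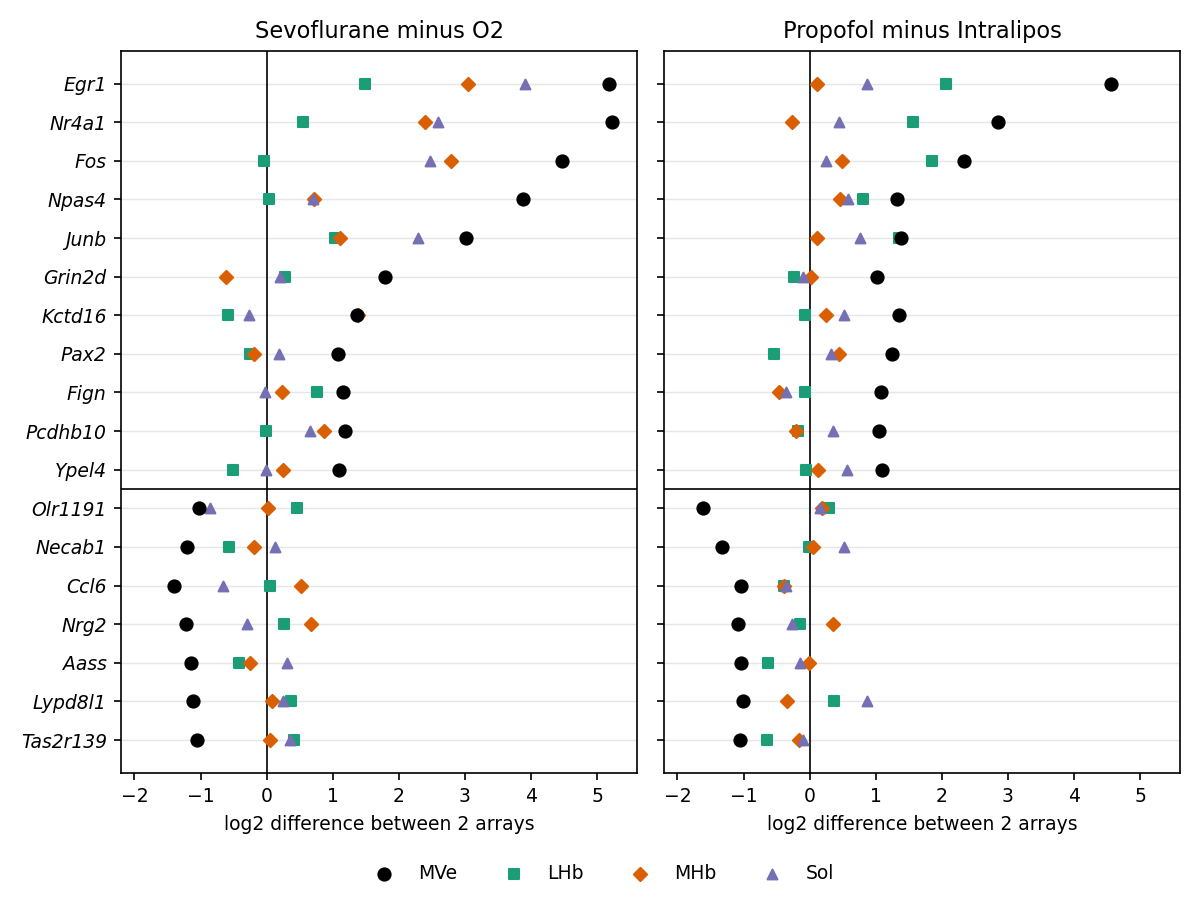
Difference between an anesthetic array and its control array (log2) for the 18 shared genes, by region, with sevoflurane minus O2 on the left and propofol minus Intralipos on the right. MVe lies farthest from 0 for nearly all genes, which a rule that chose them by their MVe values favours. Egr1 in LHb, MHb and Sol lies between 1.49 and 3.91 with sevoflurane.

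A second limma fit used all 16 arrays, with 1 anesthetic effect per region, so that the spread between both anesthetics within a region gave the error. For the MVe effect 0 of 15037 genes (0%) passed, while 1000 (547 higher, 453 lower) were under 0.05 before adjustment. For a shared gene this effect is the mean of the differences that chose it, so it is given with its error and no p. It was 4.87 ± 0.65 (SE) for Egr1, 4.04 ± 0.64 for Nr4a1, 2.60 ± 0.43 for Npas4, 2.20 ± 0.40 for Junb, 1.41 ± 0.26 for Grin2d and -1.16 ± 0.21 for Nrg2. The MVe effect minus the mean effect of the other regions passed in 0 genes (0%; 776 with an unadjusted p under 0.05). That difference, which also holds the MVe values of the choice, was 2.95 ± 0.75 for Egr1, 2.83 ± 0.74 for Nr4a1, 2.05 ± 0.50 for Npas4 and 1.48 ± 0.30 for Grin2d.

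The Npas4 value depended on which MVe pair was kept. Without the propofol pair its MVe effect was 3.88 ± 0.34 and its excess over the other regions 3.33 ± 0.37, and without the sevoflurane pair they were 1.31 ± 0.34 and 0.77 ± 0.37. For the MVe effect, the count of genes past limma's adjusted threshold was 1 (Egr1) without an MHb or a Sol pair. Leaving out either pair of such a region gives the same fit of this effect. Egr1 was chosen by these MVe values, so its passing is a description and no independent test. The count was 0 without an LHb pair. The fits treat the pairs of arrays as independent, and what shared rats between regions would do to the p-values was not tested.

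Across the 25 immediate early transcription factor genes listed for this tissue, 15 were at least 1 log2 higher in MVe with sevoflurane and 5 with propofol, and 0 were that much lower with either, beside 1.97% and 0.845% of all genes at least that much higher. The 5 with propofol are the early genes that the rule chose from these same values, so that count is no separate result. They are also among the 15 with sevoflurane. On the MVe sevoflurane array, 95.7% or more of the negative control probes lay under each of these 5 genes. Under the other genes of the 15 it was between 57.2% (Fosl2) and 92.4% (Jun). The sevoflurane differences of those other genes are thus limited by background, and they rest on the O2 array. The median difference of the 25 genes was 1.12 with sevoflurane and 0.27 with propofol, beside 0.04 and -0.01 over all genes. In LHb, MHb and Sol, 2, 6 and 6 of the 25 genes reached 1 log2 with sevoflurane and 5, 0 and 0 with propofol, beside 0.539%, 0.825% and 0.705% of all genes with sevoflurane and 0.865%, 1.1% and 1.56% with propofol. Named after their values were seen, Jun was at 7.93 with sevoflurane, against 5.20 with O2, and at 7.81 with propofol, against 7.11 with Intralipos, and the nuclear receptor gene Nr4a3 differed by 2.07 and 0.74. In Jun the O2 array stood apart. Outside MVe, Jun was above 0 in 3 of 6 pairs, with sevoflurane differences of -0.07 in LHb, 1.28 in MHb and -0.21 in Sol. Nr4a2 differed by 0.48 and 0.47. Egr2 and Egr3 lay below the median negative control on all 4 MVe arrays, with 19.7% to 38.9% of those probes under them, so no difference was read for either.

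**Figure D4:**
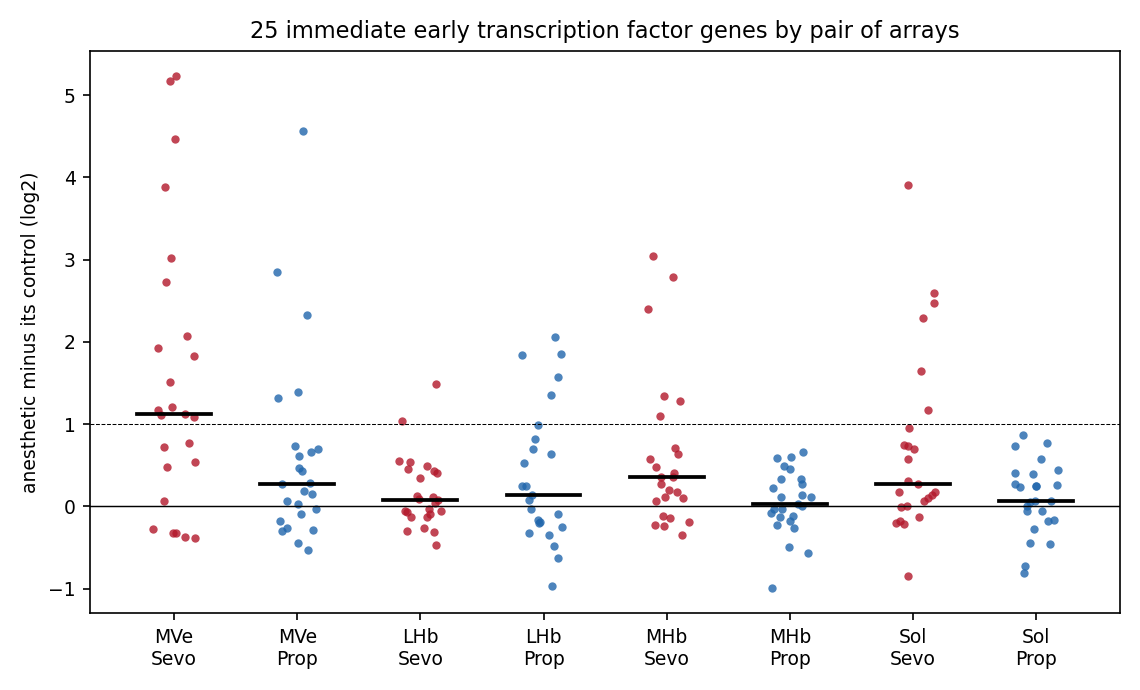
Anesthetic minus control (log2) for the 25 immediate early transcription factor genes, 1 point per gene, in each region and anesthetic, with the median as a bar. The median is 1.12 for MVe with sevoflurane and 0.27 for MVe with propofol.

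Genes that act downstream of neuronal activity were read as a second list. Of 24 neuronal activity effector genes, 6 reached 1 log2 higher with sevoflurane and 2 with propofol (medians 0.31 and 0.22), beside 1.97% and 0.845% of all genes, and none (0) reached it with both. Dusp1, a phosphatase that switches off MAP kinases, was at 12.50 with sevoflurane, against 9.62 with O2, and at 11.31 with propofol, against 10.46 with Intralipos. Arc, a synaptic plasticity gene, differed by 1.88 with sevoflurane and -0.24 with propofol, and the neuropeptide precursor gene Vgf by 1.31 and 0.39. The synaptic pentraxin gene Nptx2 differed by 0.26 and 1.21 and Gadd45b, a DNA damage response gene, by 0.22 and 1.14, the reverse order (both named after their values were seen). In both genes it was the Intralipos array that stood apart. Nptx2 was at 6.23 on it and at 7.43 to 8.17 on the other MVe arrays, and Gadd45b at 6.52 and at 7.67 to 7.93.

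Genes that differed with 1 anesthetic alone were those at 1 log2 or more in 1 pair and under 0.5 log2 either way in the other. With sevoflurane alone 377 genes met this (2.51%), 196 higher and 181 lower, and with propofol alone 180 did (1.2%), 88 higher and 92 lower. The largest with sevoflurane was Apold1, an early response gene of endothelial cells, at 8.84 with sevoflurane, against 4.79 with O2, and at 5.26 with propofol, against 5.14 with Intralipos. Ccn1, a matricellular protein gene, was at 7.86 with sevoflurane, against 4.71 with O2, and at 3.87 with propofol, against 3.85 with Intralipos. The chemokine gene Ccl2, which draws monocytes, was at 9.42 with sevoflurane, against 6.87 with O2, and at 6.10 with propofol, against 6.09 with Intralipos. In these 3 genes the sevoflurane array stood above the other 3 MVe arrays by more than 2 log2.

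In Sgk1 and Rbm3 it was the O2 array that stood apart. Sgk1, a kinase gene that glucocorticoids induce, was at 12.73 with sevoflurane, against 10.41 with O2, and at 12.38 with propofol, against 12.77 with Intralipos. The O2 array was the lowest for Sgk1 in the other regions too. It stood at 10.90 in LHb (12.14 to 13.61 on the others), 9.24 in MHb (10.16 to 11.32) and 8.87 in Sol (9.05 to 9.36). Rbm3, a cold-inducible RNA-binding protein gene, was at 7.09 with sevoflurane, against 5.05 with O2, and at 7.43 with propofol, against 7.06 with Intralipos. Klf2, an endothelial transcription factor gene, had the shape of Apold1, with 6.85 on the sevoflurane array, against 4.93 with O2, and 4.91 with propofol, against 5.20 with Intralipos.

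The other regions, which did not enter the choice, give a check on these genes too. A limma fit to the 12 arrays with 1 effect per anesthetic, added after the data were seen, gave a sevoflurane effect of 1.31 ± 0.25 for Ccn1 (adjusted p = 0.690), 1.26 ± 0.29 for Apold1 (0.890) and 1.54 ± 0.32 for Sgk1 (0.690). Apold1 was 0.32 higher with sevoflurane in LHb, 1.10 in MHb and 2.34 in Sol. Ccl2 had 0.88 ± 0.30, Klf2 0.52 ± 0.17 and Rbm3 0.29 ± 0.25. The fit called 0 genes (0%) for sevoflurane and 0 (0%) for propofol, with 745 and 1278 genes at an unadjusted p under 0.05. For Sgk1 the propofol effect was -0.98 ± 0.32 (0.481), opposite in sign to its sevoflurane effect.

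The 6 largest genes lower with sevoflurane alone were Slc39a12, Idi2, Layn, Taar7g, Igf2bp1 and Krtap5-8. Slc39a12, a zinc transporter gene, was at 6.998 with sevoflurane, against 9.23 with O2, and at 7.49 with propofol, against 7.25 with Intralipos. Igf2bp1, an mRNA-binding protein gene, was at 6.44 with sevoflurane, against 8.06 with O2, and at 6.45 with propofol, against 6.37 with Intralipos. In all 6 genes the O2 array lay above the other 3 MVe arrays, and 47 of the 181 genes of this class reached the median level of 6.83, beside 129 of the 196 higher ones. Their sevoflurane effects in the other regions lay between -0.29 and 0.44, and the part of the O2 array's higher negative controls in them was not tested.

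With propofol alone, the largest higher genes were Hpse, Cckbr and Kcnj13. Cckbr, a receptor for cholecystokinin and gastrin, was at 8.75 with propofol, against 7.03 with Intralipos, and at 7.08 with sevoflurane, against 6.64 with O2. Hpse, the gene for heparanase, was at 6.85 with propofol, against 5.01 with Intralipos, and at 6.64 with sevoflurane, against 6.59 with O2, so the Intralipos array stood apart. Kcnj13, a potassium channel gene of choroid plexus epithelium, was at 9.89 with propofol, against 8.20 with Intralipos, and at 8.61 with sevoflurane, against 8.64 with O2. All 11 of 11 choroid plexus markers were above 0 with propofol, beside 49.2% of all genes. Of these, 4 reached 1 log2, and the median was 0.71, beside 0.15 with sevoflurane. This was not particular to MVe. In Sol 6 of the markers reached 1 log2 with propofol, and the medians were 1.07 with propofol and -0.82 with sevoflurane. The propofol medians were -0.07 in LHb and -0.02 in MHb. In MVe the summed level of the markers was 105.0 with propofol, against 96.0 with Intralipos, and 94.3 with sevoflurane, against 91.4 with O2. Its part in the Kcnj13 value was not tested. Pcdhb20, Ift88 and Trank1 completed the 6 genes, with propofol differences between 1.48 and 1.57.

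The largest genes lower with propofol alone included Acp6, Phlda1 and Snrpg. Acp6, which encodes a lysophosphatidic acid phosphatase, was at 6.10 with propofol, against 8.03 with Intralipos, and at 7.21 with sevoflurane, against 6.93 with O2. Phlda1 was at 5.40 with propofol, against 6.83 with Intralipos, and at 6.74 with sevoflurane, against 6.75 with O2. Here the propofol array alone was low. Snrpg, a core spliceosome protein gene, differed by -1.34 with propofol and -0.41 with sevoflurane. Ccdc51, Adck5 and Tnnt1 differed by -1.48, -1.47 and -1.37. In the other regions the propofol effects of the 12 genes named for propofol lay between -0.72 (Tnnt1) and 0.42 (Kcnj13).

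**Figure D5:**
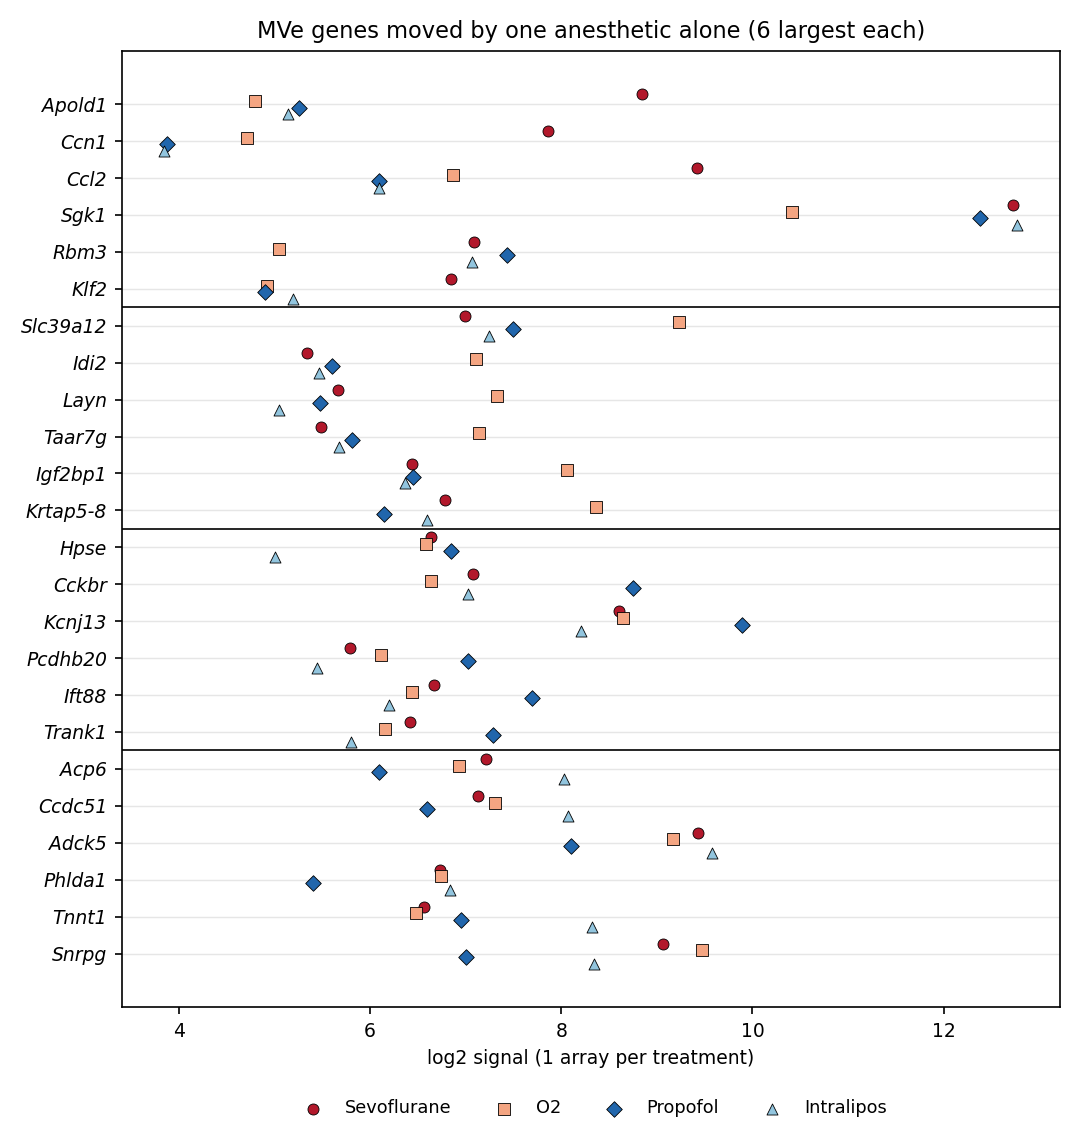
Log2 signal on the 4 MVe arrays of the 6 largest genes in each class that differed with 1 anesthetic alone, from top to bottom higher with sevoflurane, lower with sevoflurane, higher with propofol and lower with propofol. Apold1 reaches 8.84 on the sevoflurane array, and Slc39a12 reaches 9.23 on the O2 array.

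Several vascular and glucocorticoid genes reached 1 log2 with sevoflurane, while the contrast with propofol was not tested. Of 15 vascular and serum early response genes, 6 were at least 1 log2 higher with sevoflurane and 0 with propofol (medians 0.44 and -0.24), beside 1.97% and 0.845% of all genes. Beside Apold1 and Ccn1 these included Thbs1, an inhibitor of angiogenesis, at 1.10 and 0.51, and the metalloprotease gene Adamts1 at 1.26 and -0.05. Of 19 glucocorticoid-responsive genes, 4 reached 1 log2 higher with sevoflurane and 0 with propofol, with medians of 0.38 and -0.19, beside the same shares. The cell cycle inhibitor gene Cdkn1a differed by 1.37 and 0.28 and Errfi1, a feedback inhibitor of the EGF receptor, by 1.63 and -0.54. With sevoflurane 1 of 11 endothelial and mural markers reached 1 log2 (Tie1, 1.12), and their summed level was 97.9 with sevoflurane, against 95.6 with O2.

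Genes for receptors and channels that the anesthetics act on were read beside the same shares of all genes, 1.97% with sevoflurane and 0.845% with propofol, which come to less than 1 gene in a list of this length. Of 16 GABA-A and glycine receptor subunit genes, 0 reached 1 log2 with sevoflurane and 1 with propofol (Gabre, 1.13), with medians of -0.09 and 0.02. The glycine receptor gene Glra1 differed by 0.37 and 0.60 and the GABA-A subunit gene Gabra3 by 0.54 and 0.37. Among 14 K2P and HCN channel genes, Kcnk4 reached 1.25 with sevoflurane and Kcnk9 1.02 with propofol. Of 15 ionotropic glutamate receptor genes, Grin2d was the 1 that reached the threshold, with both anesthetics, and the medians of the list were 0.32 and 0.12. The rule chose Grin2d from these same values, so that count is no separate result. Grin2a, the GluN2A subunit gene, differed by 0.79 and 0.62, and in the other regions it was higher in 6 of 6 pairs (0.43 ± 0.12, adjusted p = 0.708). Of 28 neuropeptide precursor genes, the tachykinin gene Tac3 reached 1.10 with sevoflurane, and Pnoc, the nociceptin precursor gene, differed by 0.80 and 0.88.

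Cell type markers were read on the same arrays, where 54.7% of all genes were above 0 with sevoflurane and 49.2% with propofol. Of 13 neuron markers, 11 were above 0 with sevoflurane and 8 with propofol (medians 0.20 and 0.09), and of 10 astrocyte markers, 3 and 1 were (medians -0.18 and -0.28). The neuronal splicing factor gene Rbfox3 differed by 0.56 and 0.72 and the astrocyte filament gene Gfap by -0.36 and -0.94. The summed level of neuron markers was 194.7 with sevoflurane, against 191.5 with O2, and 194.6 with propofol, against 192.9 with Intralipos. The summed astrocyte level was 143.3 with sevoflurane, against 144.8 with O2, and 140.3 with propofol, against 143.5 with Intralipos. The part of neuron content in the values of Grin2d, Npas4 and Pax2 was not tested.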

How the data were processed

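Gene expression was measured on 16 arrays, 1 per region and treatment, from 100 ng of RNA each. The deposited log2 signals come, per the submitters' processing notes, from Affymetrix Expression Console 1.3.0. The log2 scale was inferred from the values. Neither the summarization method nor a build is given in the sources used here. The sevoflurane and O2 arrays look normalized apart from the propofol and Intralipos arrays, so differences were taken within a set. The overlap of anesthetic and control arrays was read after each array was centred on its median. Other levels set across both sets, among them the region markers and arrays that stood apart in a gene, are as deposited. Of 24834 probes, 1646 were controls, 15049 had 1 gene symbol through the platform annotation, 0 had several and 8139 had none. The brightest probe over all arrays stood for each of 15037 genes. No filter or further normalization was applied.

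Tests used limma 3.58.1 in R 4.3.3 (lmFit, eBayes, two-sided, Benjamini-Hochberg over all genes, threshold 0.05). The 16-array fit had 4 residual degrees of freedom, the 12-array fit 5, and the fit with 1 effect per anesthetic 4. No group has replicates, and array number limits precision. P-values of the 16-array fit measure the spread between both anesthetics within a region. Those of the fit with 1 effect per anesthetic measure the spread between regions within an anesthetic. In the 12-array fit with 1 anesthetic effect, both spreads enter. On simulated arrays of 15037 genes, the fit of the MVe effect recovered 26% of genes changed by 1 log2 and 94% at 2, with 4 false calls. The simulation gave both anesthetics the same effect. In the data most early genes differed unequally with sevoflurane and propofol, which widens their error, so these rates need not hold for them. Figures were drawn with matplotlib 3.10.9 in Python 3.11.15.

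Named were Egr1, Fos, Nr4a1 and Npas4; shared genes reaching the median level (up to 15 per direction); the 6 largest per anesthetic and direction among genes of 1 anesthetic alone at that level; the 2 genes on each side of the threshold; and up to 4 members with the largest mean difference from each of 23 gene lists (307 of 338 genes measured). The members and lists were chosen with earlier results of these data known.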

Additional observations from a re-analysis of the deposited data

How the results depend on the processing

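The count of 18 shared genes (11 higher, 7 lower) depended on the level and threshold asked for. It was 10 (8 and 2) with a filter on dim genes, 30 (14 and 16) over all probes but the controls, 245 (143 and 102) at a threshold of 1.5-fold and 3 (Egr1, Nr4a1 and Fos) at 1.5 log2. It was 8 (6 and 2) when both anesthetic arrays had to lie past both control arrays by 1 log2 after centring. It was 14 (10 and 4) after quantile normalization, under which all 18 mean differences kept their sign, and 18 with the brightest probe chosen over the MVe arrays. The 557 genes of 1 anesthetic alone became 244 with the filter on dim genes (129 higher and 47 lower with sevoflurane, 31 and 37 with propofol), 972 over all probes (284 and 404 with sevoflurane, 143 and 141 with propofol) and 312 with a bound of 0.25 log2 in the other pair. They were 514 after quantile normalization and 645 with the opposite sign allowed. With the filter on dim genes, the 542 genes at 1 log2 with sevoflurane became 259 (199 higher, 60 lower) and the 256 with propofol became 99 (49 and 50). The higher share of the sevoflurane differences thus grew when dim genes were dropped, since more dim genes were lower than higher.

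For the MVe effect, the count of 0 became 1 with a trended, robust prior (Npas4) and 1 in the 4 MVe arrays alone (Egr1). It lay between 0 and 1 (Egr1) when 1 pair outside MVe was left out. All of these rest on the MVe values that chose both genes. For the MVe effect minus the other regions the count was 0 when 1 pair outside MVe was left out. It was 0 in the other regions under each alternative run. Every fit has the pairs of an anesthetic and its control array as a block. A probe near its array's negative controls has a difference limited by that background, which bears on the 7 lower genes most.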

Other observations

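Of the genes that reached 1 log2 in both pairs of MVe arrays, 8 did so with opposite signs, and they were named after their values were seen. Srf, the gene for serum response factor, was at 6.70 with sevoflurane, against 4.94 with O2, and at 4.70 with propofol, against 6.02 with Intralipos, and none of these values reached the median level of 6.83. Bop1, which acts in ribosome biogenesis, was at 7.56 with sevoflurane, against 6.08 with O2, and at 5.61 with propofol, against 6.87 with Intralipos. Tgap1 and Entrep3 were likewise higher with sevoflurane and lower with propofol, while Slc25a37, a mitochondrial iron importer gene, Scgb1d4, Or1e27 and Or4d10 ran the other way. LHb had 5 such genes, MHb 14 and Sol 16.

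Other stress pathways were read in MVe as well. None of 14 heat shock and unfolded protein genes reached 1 log2 with either anesthetic (0 and 0), beside 1.97% and 0.845% of all genes, which come to less than 1 gene in such a list. The list had medians of 0.15 with sevoflurane and 0.08 with propofol, and the inducible chaperone gene Hspa1a differed by -0.77 and -0.68. Among 14 interferon-stimulated genes, Ifit3 differed by 1.63 with sevoflurane and 0.18 with propofol, and Mx2 by -0.42 and -0.82. The glucocorticoid-responsive genes Ddit4 and Pdk4 were lower with propofol in MVe, at -1.22 and -0.99, where sevoflurane gave 0.64 and -0.10. Ddit4 also had a propofol effect of -1.61 in LHb, MHb and Sol (adjusted p = 0.0508 by limma).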
